A study of Mus musculus with 12 samples.

Results

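The LZ-only promoter elements are places near annotated transcription start sites (TSSs) where initiation was called in leptonema/zygonema (LZ) and in neither pachynema (P) nor diplonema (D). Nascent transcription was measured by leChRO-seq, a chromatin run-on assay that sequences RNA still held by engaged RNA polymerase, in 12 libraries, with 4 for each substage. All libraries came from spermatocytes of adult wild-type male mice, enriched by STAPUT, which separates cells by size and density. No group carried a transgene or a treatment, and the methods name germ cells of earlier or later stages as possible contamination of each fraction. The 4 libraries of a substage were merged before peaks were called with dREG, a tool that scores the signature of initiation in run-on reads, so each substage has 1 peak list, of 71107 peaks in LZ, 68352 in P and 38603 in D. Peaks of the 3 lists that overlapped or touched were joined into 65172 elements. Of these, 25410 lay on an autosome with an edge less than 1000 bp from any TSS that GENCODE M21 annotates and are called promoter elements here. An element was chosen when it held an LZ peak and no P or D peak, which left 3710 LZ-only promoter elements, 14.6% of all autosomal promoter elements (95% Wilson interval 14.2 to 15.04%). The number depended on the calls, and it was 1649 (8.39%) with each list cut to its 38603 highest-scoring peaks, the length of the D list, 826 (3.503%) with a score of at least 0.5 asked of the LZ list alone, and 1518 (8.30%) when peaks up to 500 bp apart were merged. Each was a single LZ peak. Members were thus selected on the calls themselves, and their absence from the P and D lists is a description and not a finding. With no replicate lists there was no spread between replicates and no test between substages, and the intervals cover the counting of elements alone, which are not independent where they adjoin. The lists hold no read counts, so the depth behind each call is unknown from them. Normalization factors that the methods give for the libraries combine library size with the transcriptional activity of the substage and were not used here. They differ between libraries, and most LZ libraries have larger factors than any P library and than most D libraries. How this bears on the LZ-only calls was not tested. An element that was not called in P or D is not shown to be inactive there, and fewer cells using a start and less initiation per cell cannot be told apart.

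Prophase I of meiosis runs from leptonema and zygonema, when programmed DNA breaks form and homologous chromosomes pair, through pachynema, when synapsis is complete and crossovers mature, to diplonema, when the synaptonemal complex comes apart. Spermatocytes reach leptonema after a last round of DNA replication, and transcription is low in early prophase and rises in pachynema. At a mammalian promoter, RNA polymerase II usually starts in both directions from a nucleosome-free stretch, pauses a short way downstream, and is then released into the gene. dREG reads this paired, bidirectional pattern, and its peaks have no strand.

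The stretches just before the TSS show what the strongest of these elements look like. Printed are 150 bases of GRCm38 (mm10), 5′ to 3′ on the strand of the gene and ending at the base before the TSS, for the 6 highest-scoring LZ-only promoter elements over the TSS of a gene without any P or D peak at its TSSs, passing over those whose stretch held an annotated exon, and then for 2 genes of the gene lists used below that also had a member over a TSS: Mcm10, which had no P or D peak at its TSSs, and Sun1, which had both at another TSS. Capitals mark matches, on either strand, to any of 19 short motifs. The matches of Dnajc9, Kbtbd4 and Selenov are to the SP/KLF letters GGGCGG.
Gm47429, chr13:50443913-50444062, minus strand: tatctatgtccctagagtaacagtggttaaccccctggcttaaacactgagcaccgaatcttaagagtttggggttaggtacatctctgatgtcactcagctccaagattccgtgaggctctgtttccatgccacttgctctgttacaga
Dnajc9, chr14:20388911-20389060, minus strand: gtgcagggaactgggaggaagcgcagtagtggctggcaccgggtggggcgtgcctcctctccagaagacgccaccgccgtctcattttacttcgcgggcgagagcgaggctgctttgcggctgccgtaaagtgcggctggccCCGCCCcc
Kbtbd4, chr2:90904925-90905074, plus strand: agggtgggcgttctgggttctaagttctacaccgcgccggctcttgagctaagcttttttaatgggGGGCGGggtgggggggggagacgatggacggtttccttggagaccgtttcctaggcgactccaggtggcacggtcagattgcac
Selenov, chr7:28291187-28291336, minus strand: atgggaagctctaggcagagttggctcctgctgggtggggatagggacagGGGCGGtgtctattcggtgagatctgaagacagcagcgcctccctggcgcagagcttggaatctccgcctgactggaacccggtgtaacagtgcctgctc
Dhps, chr8:85072151-85072300, plus strand: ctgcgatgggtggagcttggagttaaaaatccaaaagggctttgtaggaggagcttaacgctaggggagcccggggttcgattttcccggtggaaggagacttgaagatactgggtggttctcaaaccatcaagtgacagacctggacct
Col15a1, chr4:47208011-47208160, plus strand: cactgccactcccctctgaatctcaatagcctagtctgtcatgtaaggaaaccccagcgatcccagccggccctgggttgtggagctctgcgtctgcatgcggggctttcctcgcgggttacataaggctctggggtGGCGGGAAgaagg
Mcm10, chr2:5012792-5012941, minus strand: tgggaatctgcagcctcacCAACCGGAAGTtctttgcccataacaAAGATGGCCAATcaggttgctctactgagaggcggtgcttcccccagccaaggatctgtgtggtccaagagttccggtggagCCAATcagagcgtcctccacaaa
Sun1, chr5:139211791-139211940, plus strand: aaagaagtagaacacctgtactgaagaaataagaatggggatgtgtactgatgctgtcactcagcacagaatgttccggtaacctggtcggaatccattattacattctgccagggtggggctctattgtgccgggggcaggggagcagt

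The G and C content of these stretches ran from 46.7% for Gm47429 to 68.0% for Dnajc9. In Col15a1 the marked run is the E2F letters TTCCCGCC read on the other strand. In Mcm10 the first marked run holds the MYB letters CNGTTG (N is any base) on the other strand, overlapping the ETS letters CCGGAAGT, and the next holds the YY1 letters AAGATGGC overlapping the NFY letters CCAAT. No match was found in Dhps, Gm47429 or Sun1. For scale, GGGCGG was in 35.6% of the same 150-base stretches before all 20807 autosomal protein-coding genes, CCAAT in 26.8%, CNGTTG in 17.7%, CCGGAAGT in 2.83%, TTCCCGCC in 1.74% and AAGATGGC in 0.884%. Across the 391 protein-coding genes without a P or D peak at any TSS that had an LZ-only promoter element over one, GGGCGG was in 170 (43.5%), between the share of all genes and the 48.3% of the 12048 genes with LZ and P or D peaks at their TSSs. CCAAT was in 81 of the 391 (20.7%, beside 28.0% of the 12048) and CNGTTG in 63 (16.1%, beside 18.6%). CCGGAAGT was in 18 (4.60%, beside 4.34%), TTCCCGCC in 11 (2.81%, beside 2.38%) and AAGATGGC in 3 (0.767%, beside 1.25%). No direction is read from counts this small. The stretches also differed in median G and C content, at 58.7% for the 391 and 61.3% for the 12048. A match is a description of the letters, not a bound site.

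The cells were checked against marker genes by the peaks near their TSSs. Of 10 leptonema/zygonema markers, 9 had an LZ peak, with a summed LZ dREG score of 10.5, led by Meiob at 1.32, and Mei1 had none in any list. These genes are not marks of LZ by this measure, since the same 9 also had a P peak and a D peak. Of 19 spermatogonia markers, 12 had an LZ peak (summed score 10.6, highest Crabp1 at 1.10), 13 a P peak (summed score 9.74) and 7 a D peak (4.21). Among them the stem and progenitor cell genes Id4, Zbtb16 and Etv5 had peaks in all 3 lists, with LZ scores of 1.03, 0.845 and 1.05 and P scores of 1.16, 0.857 and 0.996, as had Kit (1.04 and 0.999) and Dmrt1 (1.07 and 1.06). The LZ score was the higher one, with no D peak, for Crabp1 (1.10 and 0.721), Sohlh1 (0.917 and 0.522), Sall4 (1.06 and 0.860), Stra8 (0.755 and 0.580), Pou5f1 (0.859 and 0.790) and Lin28a (0.450 and 0.355). Cdh1 had an LZ peak alone (0.448), Ret, Utf1 and Upp1 had P or D peaks and no LZ peak, and Gfra1, Nanos2, Nanos3 and Neurog3 had none in any list. Scores are not scaled between the lists. Of 8 spermatid markers 7 had a peak in each list. Among somatic cells, 3 of 10 Sertoli markers had an LZ peak (summed score 1.98, highest Gata4 at 0.925) and Amh, Fshr, Dhh, Cst9 and Cst12 had none. In P, 5 of the Sertoli markers had a peak (summed score 3.35), with Wt1 and Cldn11 among them but without an LZ peak. In D, 4 had one (2.00). For Leydig cells 0 of 8 markers had an LZ peak, 2 had a P peak (Cyp11a1 and Lhcgr) and 1 a D peak (Lhcgr). None of 4 peritubular markers had a peak in any list. One of 6 macrophage markers (Cd14, 0.559) and 1 of 4 endothelial markers (Kdr, 0.374) had an LZ peak, and Cd68, Csf1r and Pecam1 had none. Cd14 and Kdr also had P peaks (0.681 and 0.564), and Cd14 a D peak (0.305). None of the 32 somatic markers had an LZ-only promoter element. The part of spermatogonia in the members below was not tested.

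The LZ-only promoter elements were mostly weak and narrow. Their median dREG score, which has no fixed range, was 0.389 (quartiles 0.335 and 0.483), with a lowest value of 0.257 and a highest of 1.358. With lists of equal length it was 0.665. Promoter elements that held an LZ peak together with a P or D peak, 17048 in all and called shared elements here, had a median highest LZ score of 0.952 (0.633 and 1.17). A score of at least 0.5 was reached by 826 members (22.3%) against 84.6% of shared elements, a score of at least 0.8 by 102 (2.75%) against 62.5%, and a score of at least 1 by 17 (0.458%) against 45.4%. Read by score, the LZ-only share of promoter elements with an LZ peak was 59.5% from 0.2 to 0.4, 34.6% from 0.4 to 0.6, 10.6% from 0.6 to 0.8 and 2.85% from 0.8 to 1, and it was 0.346% from 1 to 1.2 and 0.0584% above that. The P-only share of promoter elements with a P peak, over the same scores in P, was lower in the first 5 ranges, at 50.7%, 24.1%, 4.40%, 0.558% and 0.0234%, and in the highest it was 0 of 2906, which allows a share of up to 0.103%. Elements with a P peak and no LZ peak, whether or not D was called, made up 58.2%, 33.8%, 10.6%, 3.31%, 0.538% and 0.0688%. The score was part of whether a peak was called at all, so these shares describe the calling as much as the cells. Members had a median width of 380 bp (300 and 480) against 1020 bp for shared elements, and the 2925 promoter elements called in P only were as narrow (370 bp) and scored a median of 0.370 in P.

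**Figure D1:**
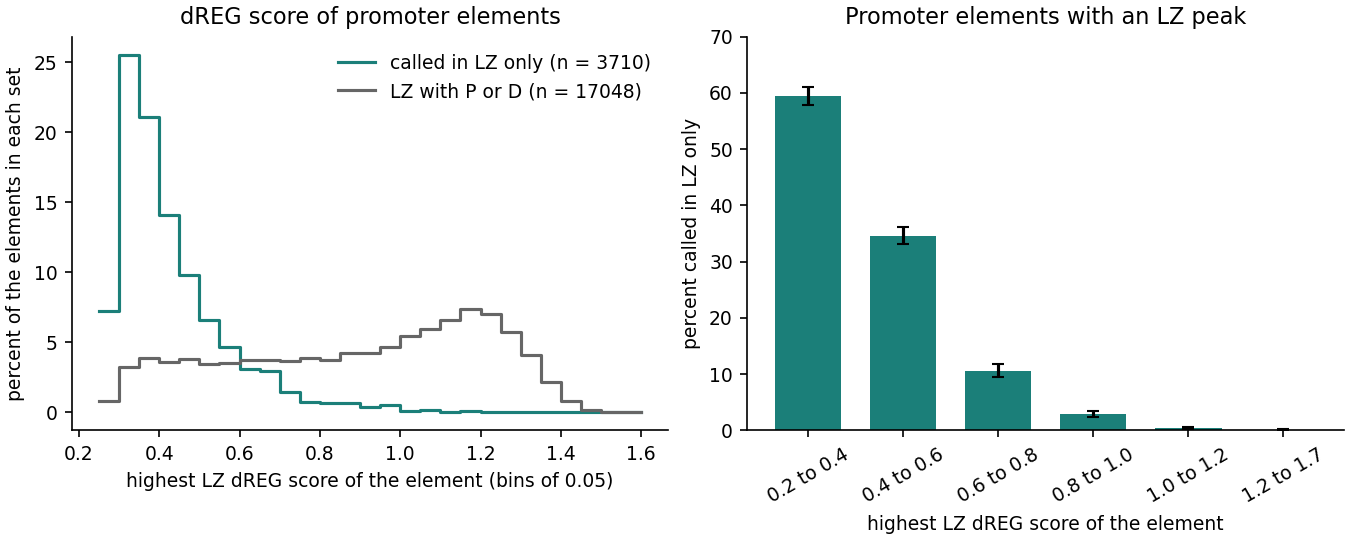
Left, percent of the LZ-only (n = 3710) and shared (n = 17048) promoter elements by their highest LZ dREG score in bins of 0.05. Right, percent of promoter elements with an LZ peak that were called in LZ only, by score, with 95% Wilson intervals: 59.5% in the lowest-scoring group and 0.0584% in the highest.

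The distance of 1000 bp that defines a promoter element cut through a continuous set. LZ-only elements 950 to 999 bp from a TSS numbered 91 with a median score of 0.407, and those 1000 to 1049 bp away numbered 74 with a median of 0.383. The nearest inside were near Zfp639 (999 bp, score 0.482) and 1700034B16Rik (999 bp, 0.419), and the nearest outside were near Kbtbd7 (1000 bp, 0.534) and Thoc7 (1000 bp, 0.334). Farther from TSSs, LZ-only calls were more common: they made up 40.7% of autosomal distal elements with an LZ peak (40.2 to 41.3%) and 17.9% of promoter elements with one (17.4 to 18.4%).

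Of the 3710, 1812 (48.8%, 47.2 to 50.4%) had a P or D peak within 500 bp. This share depended on the calls, and it was 28.4% with lists of equal length, 31.2% with a score of at least 0.5 asked of the LZ list alone, and 22.1% when peaks up to 100 bp apart were merged. Of all members, 452 (12.2%) had one within 50 bp. At the other end 837 (22.6%) had none within 10000 bp, and the median distance was 541 bp. In bins of equal width on a log scale, 377 members lay 100 to 178 bp from a later peak. Fewer, 141, lay 1000 to 1778 bp away, and 323 lay 5623 to 10000 bp away. Members within 500 bp of a P or D peak are called near and the others far. For 1697 of the 1812 near members (93.7%) the neighbouring element also held an LZ peak, and in 1621 of these (95.5%) the neighbour's LZ score was the higher one, with a median of 1.01 against 0.372 for the near members. In these cases the LZ-only call lay beside a stronger LZ peak of an element that was also called later, whatever the distance of that element from a TSS. Members farther than 500 bp scored a median of 0.409 (highest 1.358). P-only promoter elements had an LZ or D peak within 500 bp in 54.6%. Other LZ peaks were close as well, with one within 50 bp of 41.7% of members. Members no more than 500 bp apart formed 3308 groups, of which 2967 held 1 member and the longest held 5.

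Where the members sat around TSSs followed the same division. A member covered a TSS in 32.3% of cases (30.8 to 33.8%), with 16.8% for those near a later peak and 47.1% for the rest, whereas 81.3% of shared elements and 29.7% of P-only elements did so. With lists of equal length 53.6% of members covered one. Since wide, high-scoring elements cover more sequence, the shared elements were also weighted to the scores of the members, and 54.8% then covered a TSS. The peak centre was within 100 bp of the nearest TSS in 22.8% of members, more than 100 bp downstream in 41.8% and more than 100 bp upstream in 35.3%. In shared elements these values were 55.2%, 21.1% and 23.7%, and in P-only elements 20.1%, 49.9% and 29.98%. The centre lay in an intron in 46.7% of members, in an exon in 28.6% and outside annotated genes in 24.7%. In bins of 50 bp both near and far members were most frequent just upstream of the TSS, with 4.08% of near and 13.1% of far members in the last bin before it. Near members had further rises on both sides, with 3.75% from 250 to 300 bp downstream, where far members had 1.63%, and 3.201% in the bin that starts 450 bp upstream, where far members had 1.58%.

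**Figure D2:**
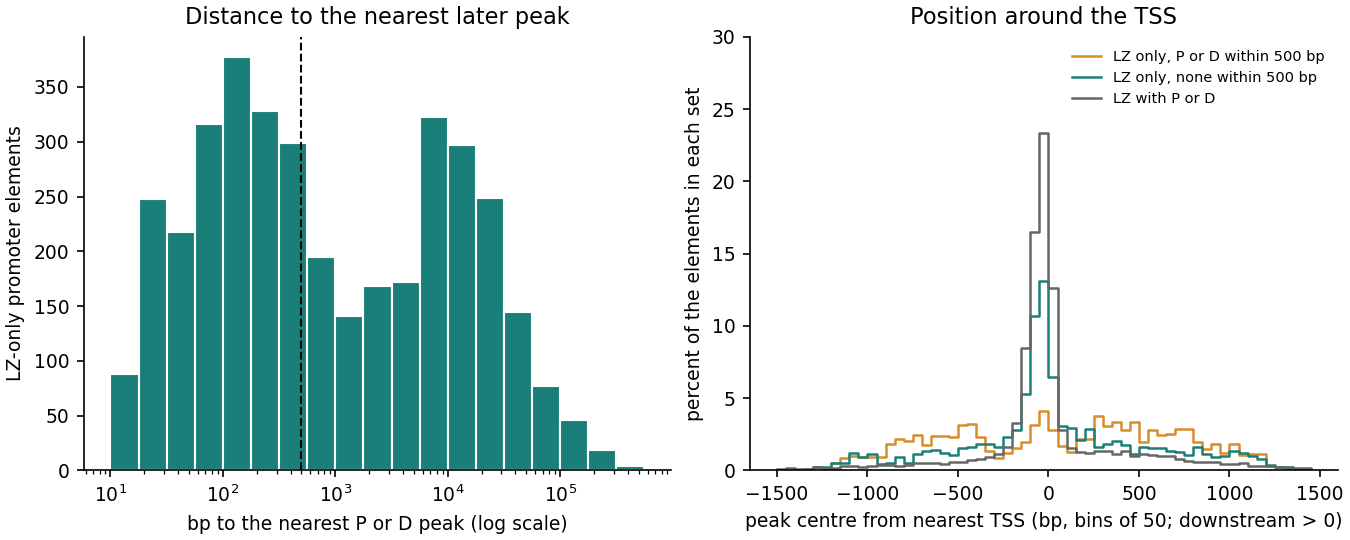
Left, number of LZ-only promoter elements by distance in bp to the nearest P or D peak on a log scale, with the dashed line at 500 bp. Right, percent of elements in each set by position of the peak centre from the nearest TSS in bins of 50 bp. Both the members within 500 bp of a later peak (n = 1812) and the others (n = 1898) are most frequent just before the TSS, at 4.08% and 13.1%, and the former are spread more widely to either side.

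In sequence the members were poorer in G, C and CpG than shared elements. In the 200 bp around the peak centre the median G and C content was 51.0% (quartiles 45.0 and 58.5%) against 59.0% in shared and 52.0% in P-only elements. The ratio of observed to expected CpG, which is low where methylation has worn CpG away and high in CpG islands, had a median of 0.320 against 0.670 and 0.415. It was at least 0.6 in 23.8% of members (22.5 to 25.2%), in 56.3% of shared (55.5 to 57.0%) and in 28.1% of P-only elements (26.5 to 29.8%). Weighting shared elements to the members' scores narrowed the gap but did not close it, with a mean G and C content of 56.3% against 52.1% and a mean CpG ratio of 0.511 against 0.386. More than 50% of the window was soft-masked as repeat in 9.06% of members (8.17 to 10.0%), 3.37% of shared and 6.32% of P-only elements. Near members had a lower median G and C content (49.5%) than far ones (52.5%).

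**Figure D3:**
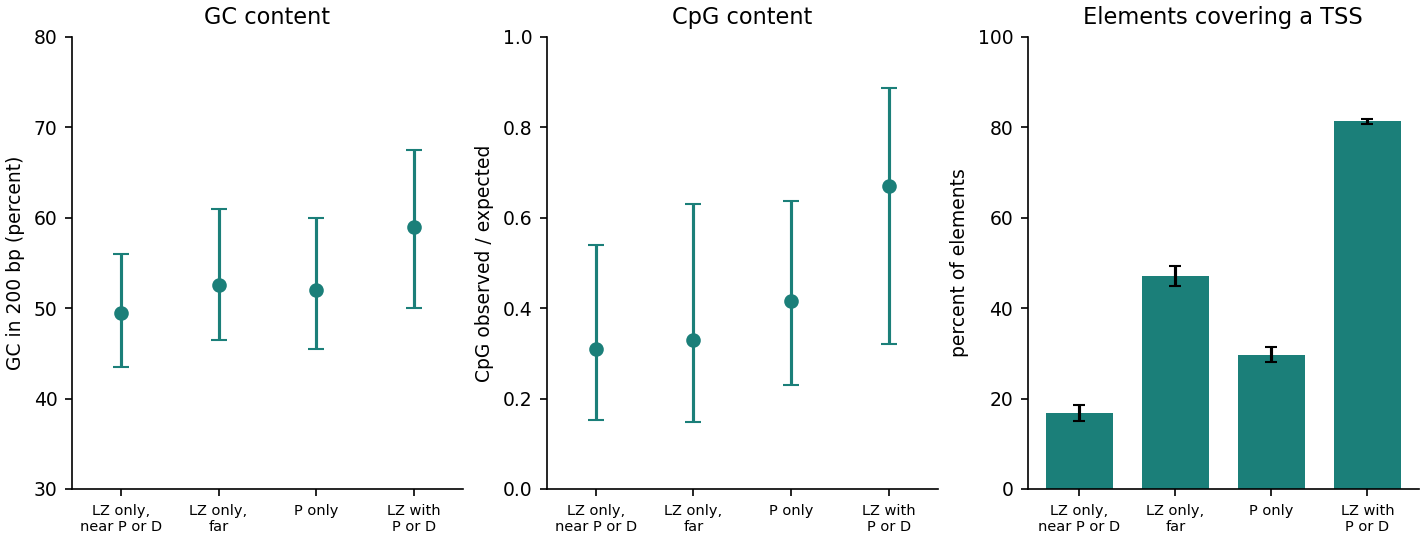
Medians with quartiles of G and C content (left) and of observed to expected CpG (middle) in 200 bp around the peak centre, and the percent of elements covering a TSS with 95% Wilson intervals (right). LZ-only elements are split into those within 500 bp of a P or D peak (n = 1812) and the rest (n = 1898). Near and far members lie below the shared elements, whose median CpG ratio is 0.670, in each panel.

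Motif letters were then sought, on either strand and up to 100 bp from the centre of each peak, beside shared elements weighted to the G and C content of the members. NRF1 letters (GCGCATGC) were in 28 members (0.755%, 0.523 to 1.09%) against 2.31% of weighted shared elements, ETS letters (CCGGAAGT) in 41 (1.11%) against 3.45%, CREB letters (TGACGTCA) in 21 (0.566%) against 2.21%, and ZBTB33 letters (TCTCGCGA) in 5 (0.135%) against 0.781%. With weights for score as well as G and C content, which could be formed for 3703 of the members, the values for weighted shared elements were 1.23%, 1.17%, 0.945% and 0.171%. The ETS and ZBTB33 shares then lay within the members' intervals and the NRF1 and CREB shares above them. Position was not weighted, though the centre was within 100 bp of the nearest TSS in 22.8% of members and 55.2% of shared elements. NRF1 letters were in 0.497% of near and 1.00% of far members, and CREB letters in 0.331% and 0.790%. CCAAT was in 21.6% of members (20.3 to 23.0%) against 29.0%, or 25.1% with both weights. GGGCGG was in 19.3% (18.04 to 20.6%) against 24.5%, or 20.7%. The E-box letters CACGTG were in 3.42% (2.88 to 4.06%) against 5.07%, or 4.47%. With both weights the direction turned for the E2F, YY1, DMRT, TATA, CTCF and RFX letters. The E2F letters TTCCCGCC were in 0.997% (0.724 to 1.37%) against 1.30%, or 0.673%, and the YY1 letters AAGATGGC in 1.48% (1.14 to 1.92%) against 1.97%, or 1.13%. The shorter E2F letters TTTGGCGC were in 0.189% (0.0914 to 0.389%) against 0.357%, or 0.123%, and the DMRT letters ACATTGT in 2.56% (2.10 to 3.12%) against 2.82%, or 2.22%. TATAAA was in 8.38% (7.53 to 9.32%) against 8.31%, or 8.60%, the STRA8 letters CNCCTCAG in 4.93% against 4.90%, or 4.87%, the CTCF letters AGGGGGC in 6.17% (5.44 to 6.99%) against 6.33%, or 6.12%, the GATA letters AGATAA in 7.25% (6.46 to 8.13%) against 7.54%, or 8.13%, and the AP-1 letters TGANTCA in 6.50% (5.75 to 7.33%) against 5.67%, or 6.09% with both weights. The MYB letters CNGTTG, the motif of the family of A-MYB, a regulator of pachytene genes, were in 26.1% of members (24.8 to 27.6%), in 29.1% of weighted shared elements (26.8% with both weights) and in 25.4% of P-only elements. The form with its flank, GGCNGTT, was in 6.82% of members (6.05 to 7.68%), 9.55% of weighted shared elements (8.46% with both weights) and 8.92% of P-only elements. The RFX letters GTTGCCA, of a family that acts on ciliary and sperm genes, were in 3.85% of members (3.28 to 4.52%), 5.92% of weighted shared elements (3.17% with both weights) and 2.50% of P-only elements, and among members in 2.59% of near and 5.06% of far ones.

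A protein-coding TSS was within 1000 bp of 2726 members (73.5%, 72.0 to 74.9%) against 81.5% of shared elements. Among the rest, taking the first type present within 1000 bp in the order given here, a lincRNA start was found for 364 members (9.81%), an antisense gene for 168 (4.53%), a pseudogene for 256 (6.90%), a small RNA gene for 72 (1.94%) and another type for 124 (3.34%). Antisense genes made up 2.83% and pseudogenes 3.61% of shared elements, and 2.56% and 7.73% of P-only elements. The lincRNA members were more often repeats, with over 50% of the window soft-masked in 18.4% against 6.68% for members at protein-coding genes, and their median CpG ratio was 0.205 against 0.387. Their median scores hardly differed (0.384 and 0.389).

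Seen by gene, most of those with such an element had a later peak near a TSS as well, though a smaller share than of all genes with an LZ peak. Of 20807 autosomal protein-coding genes, 2396 (11.5%, and 19.0% of the 12639 with an LZ peak) had at least 1 LZ-only promoter element, and 1814 of these also had a P or D peak under 1000 bp from one of their TSSs. Of the 12639 genes with an LZ peak, 12048 had such a P or D peak. Genes with an LZ peak there and no P or D peak, called LZ alone below, numbered 591, which was 2.84% of all and 4.68% of the 12639 genes with an LZ peak. They numbered 226 with a score of at least 0.5 asked of the LZ list alone. Of the 591, 582 had a member, and in 391 a member covered a TSS, with a score of at least 0.5 in 171 and of at least 0.8 in 37. Genes with P peaks alone numbered 442. Because the rule of selection used the same calls, these percentages are the background for the gene groups below and not results about the members.

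The 20 LZ alone genes with the highest-scoring member over a TSS had scores from 0.930 to 1.358 and lay on 13 chromosomes. Their nearest P peak was 1371 to 91001 bp from the element and their nearest D peak 2741 to 250691 bp, and 10 of the 20 had neither within 10000 bp. In 13 of the 20 the element had a CpG ratio of at least 0.6. These counts are of genes, which lay on 19 elements, as 2 of the genes share 1. Among all members 23.8% had such a ratio and 22.6% had no P or D peak within 10000 bp. Spatc1l, which encodes a speriolin-like protein, led with 1.358, a score higher than those of 98.7% of all LZ peaks. Its element (chr10:76561751-76562710) also covered the start of the antisense gene 4930483K19Rik, and the peak does not tell which of them it belongs to. P and D peaks were seen only at the far end of the gene, from 7579 bp downstream of its TSS in P (scores 0.316 and 0.708) and from 7619 bp in D (0.316 and 0.525). Next came Gm47429, a predicted gene, at 1.295 (chr13:50443571-50444180), with the nearest P peak 19991 bp away.

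Several of the 20 are genes that most cells use. Dnajc9, a histone co-chaperone that supplies histones during replication, had an element of score 1.183 (chr14:20388501-20389170) and 3 further LZ peaks beside it with scores of 0.378, 0.474 and 0.526. Its nearest P peak was 15091 bp and its nearest D peak 40021 bp away. Ndufs3, a core subunit of mitochondrial complex I, and Kbtbd4, a substrate adaptor of cullin ubiquitin ligases, start in opposite directions within 1 element of score 1.165 (chr2:90904601-90905290), 11921 bp from the nearest P peak. Ndufs7, another complex I subunit, had 1.028 (chr10:80249141-80249560) and its nearest P peak at 11951 bp. Dhps, the enzyme that starts the hypusine modification of the translation factor eIF5A, had 1.119 (chr8:85071991-85072360) with the nearest D peak at 8091 bp. The ubiquitin ligase gene Rnf181 had 1.052 and, unlike these, an element poor in CpG (ratio 0.147).

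Others are known from narrower settings. Col15a1, a collagen of basement membranes, had 1.074 (chr4:47207991-47208290) in a window of 74.0% G and C, 6771 bp from the nearest P peak. Selenov, a selenoprotein of the testis, had 1.132 (chr7:28290711-28291620), with a P peak 2711 bp away. Rsph14, a component of the radial spokes of cilia and flagella, had 0.962, and Mfsd2b, a transporter of sphingosine phosphate in blood cells, had 0.960 with the nearest P peak 29871 bp away. The remaining scores were 1.028 for Prr22, 0.993 for Ankrd53, 0.964 for Cby3, 0.959 for Spata2l, 0.941 for Sra1 and 0.930 for Plekhg4. The elements of Col15a1, Ankrd53 and Spata2l were also within 1000 bp of antisense starts (Gm12426, 1700124L16Rik and 4933417D19Rik). That of Cby3 was also within 1000 bp of the start of Mir804. These peaks do not tell which gene they belong to.

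**Figure D4:**
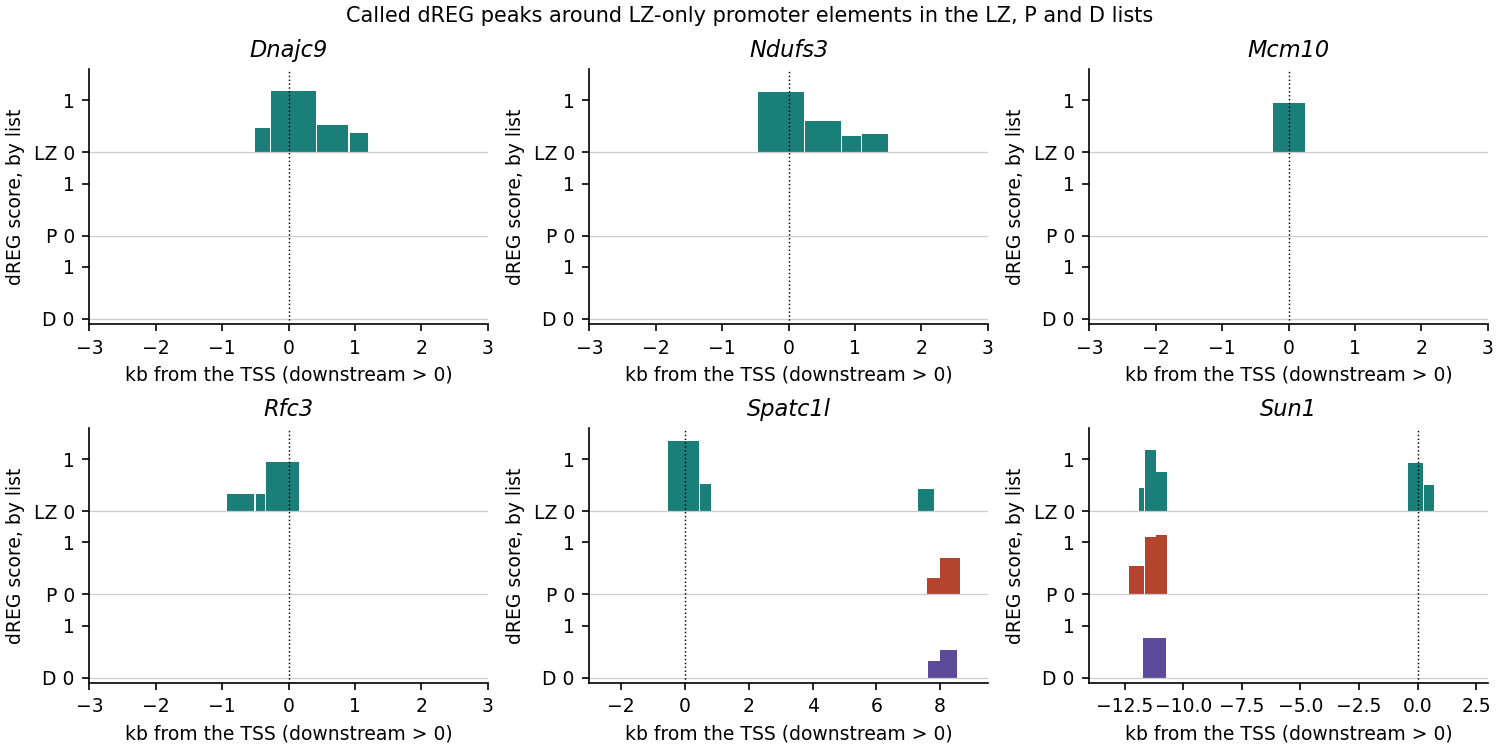
Called dREG peaks in the LZ, P and D lists around 6 LZ-only promoter elements, by distance from the covered TSS in kb (downstream positive). Bars show the width and the dREG score of each peak, on a separate scale from 0 for each list. Dnajc9, Ndufs3, Mcm10 and Rfc3 have LZ peaks and no P or D peak in the 6 kb shown, Spatc1l has P and D peaks near its far end, and Sun1 has peaks of all 3 lists at another start upstream.

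Some genes held several members. The longest set was at 1110017D15Rik, a gene expressed in testis, with 6 LZ-only promoter elements between 41506701 and 41517610 on chromosome 4 and scores of 0.994, 0.657, 0.443, 0.325, 0.309 and 0.280. Its nearest P peak was 7881 bp from the strongest of them. Dnajc9, Ndufs3, Ankrd53 and Zscan29 had 4 each. At Zscan29, a zinc finger gene that shares its promoter with the gamma-tubulin complex gene Tubgcp4, scores were 0.851, 0.346, 0.346 and 0.330 and the nearest P peak was at least 29131 bp from each. At least 3 members were found at 96 genes. Adjoining members of 1 gene share their source and are not separate observations.

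A further 228 genes, a set defined after the values were seen, had a later peak at another start. In each, a member with no P or D peak within 500 bp covered 1 TSS, and a P or D peak covered a different TSS of the same gene. The other start was upstream in 161 and downstream in 67, with a median distance of 11202.5 bp. It was covered in LZ as well in 188, in P in 218 and in D in 150. Sun1, which encodes the nuclear envelope protein that tethers telomeres during pairing, had a member of score 0.925 over an internal TSS (chr5:139211541-139212190), and its start 11256 bp upstream was covered in all lists, with scores of 1.183 in LZ, 1.108 in P and 0.757 in D. Fmn1, a formin that nucleates actin filaments, had the highest score of the set at 1.159, and its other start, 23581 bp downstream, had 1.216, 1.134 and 0.837. Fbxo46 had 1.067 with the other start 11834 bp upstream, Trim17 0.979 at 9117 bp and Pwp1 0.964 at 42337 bp. Prkaca, the catalytic subunit of protein kinase A, was different in that its other start, 3890 bp downstream, had no LZ peak over it and scores of 0.511 in P and 0.421 in D.

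None of the 19 meiotic entry regulators, 15 genes of double-strand break formation, 24 of the synaptonemal complex and cohesin, 43 of strand exchange and crossover, 18 of DNA methylation or 23 of the piRNA pathway was LZ alone, beside 4.68% of all genes with an LZ peak. The intervals of these counts of 0 reach 8.20 to 22.8% of the listed genes with an LZ peak and contain that share, so nothing is read from them. The break formation list had a member in 3 genes (23.1% of the 13 with an LZ peak, beside 19.0% of all genes with one), the PRDM9 partner gene Zcwpw1 (0.397), Ankrd31 (0.440) and Prdm9 (0.377), the methyltransferase gene that places recombination hotspots, and all 3 had P and D peaks at their TSSs too. In the synaptonemal complex list the members were at Sun1, the central element gene Syce2 (0.527) and the meiotic cohesin gene Smc1b (0.415). The strand exchange list had 5, at the crossover gene Ccnb1ip1 (0.574), Brca2 (0.409), Xrcc3 (0.358), Rpa1 (0.312) and Psmc3ip (0.305), which was 11.6% of the list. None of these 5 covered a TSS, and each lay within 500 bp of a P peak. The one at Ccnb1ip1 was also within 1000 bp of the starts of Parp2 and Rpph1, and the peak does not tell which gene it belongs to. Entry regulators had 2, at the Polycomb gene Rnf2 (0.646) and at Mga (0.411). The piRNA pathway had 2, at the helicase gene Mov10l1 (0.570) and the methyltransferase gene Henmt1 (0.363), and DNA methylation had 1, at Tet3 (0.610). Of the genes with a member in these 6 lists, Rnf2 and Sun1 alone had one over a TSS. Among listed genes with an LZ peak, the share with a member was 13.0% for the synaptonemal complex and 10.5% for entry regulators. It was 10.5% for the piRNA pathway and 6.67% for DNA methylation. These shares and the 11.6% of strand exchange lay below the 19.0% of all genes with an LZ peak. The intervals of all 6 lists contain 19.0%, so nothing is read from these shares.

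The list of premeiotic S phase and replication had a member in 13 of 54 genes, each with an LZ peak (24.1%, 14.6 to 36.9%, beside 19.0% of all genes with an LZ peak). Mcm10, which helps to activate the replicative helicase, had a member of score 0.942 over its TSS (chr2:5012551-5013030), with the nearest P peak 23801 bp and the nearest D peak 50511 bp away. Rfc3, a subunit of the clamp loader, had 3 members, the strongest of score 0.941 (chr5:151651041-151651530), with the nearest P peak 91001 bp and the nearest D peak 250691 bp away. Both were LZ alone, as was Tk1, the thymidine kinase of S phase (0.412), so 3 of the 54 were LZ alone (5.56%, beside 4.68% of all genes with an LZ peak). Other members were at E2f2 (0.686) at the ribonucleotide reductase genes Rrm2 (0.614) and Rrm1 (0.442), and at E2f8 (0.441), all with P peaks at their TSSs. Of 39 genes of G1 and mitosis 5 had a member (12.8%), among them Cdc25b (0.699), and the cyclin D gene Ccnd1 (0.356) was LZ alone. Of 67 clustered histone genes, which supply histones for replication, 10 had a member (19.6% of the 51 with an LZ peak) and 6 were LZ alone (11.8% of the 51, 5.51 to 23.4%). Hist1h4k had the highest score of this list (0.647) and, like Hist1h4i (0.396), a P peak at its TSSs. Of the LZ alone genes, Hist1h2bb and Hist1h3c shared a member of score 0.611, Hist2h3c2 had 0.575 and Hist2h4 0.432. Neighbouring histone genes that share an element are not separate observations, and the members were chosen on the same calls. Nothing is therefore read from the histone shares. Tk1 lies outside the rule for named genes and was chosen after its value was seen.

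Genes of signalling and of cell fate were also among the members, at modest scores. Of 79 signalling ligands and receptors 13 had a member (24.5% of the 53 with an LZ peak, beside 19.0%) and 5 were LZ alone (9.43% of the 53, 4.10 to 20.3%). These were the hedgehog effector Gli1 (0.631, with 3 members), the germ cell ligand Bmp8b (0.541), and Wnt7a (0.382), Bmp2 (0.341) and Fzd2 (0.294), of which the last 3 were chosen after their values were seen. The hedgehog receptor Ptch1 had a member of 0.576 and P and D peaks as well, and Lrp5 (0.588) and Gli2 (0.411) had P peaks. Of 186 genes of developmental transcription factor families 23 had a member (32.9% of the 70 with an LZ peak, 23.0 to 44.5%) and 6 were LZ alone (8.57% of the 70, 3.99 to 17.5%). Gata2, a regulator of blood progenitors, had 0.674 and Lhx5 0.491, while Sox4 (0.549) had a D peak and Foxj2 (0.780) P and D peaks. The LZ alone intervals of both lists contain the 4.68% of all genes with an LZ peak. For the share with a member, the signalling interval (14.9 to 37.6%) contains 19.0%, and that of the transcription factor families lies above it. The members were chosen on the same calls, so nothing is read from these shares about the lists.

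**Figure D5:**
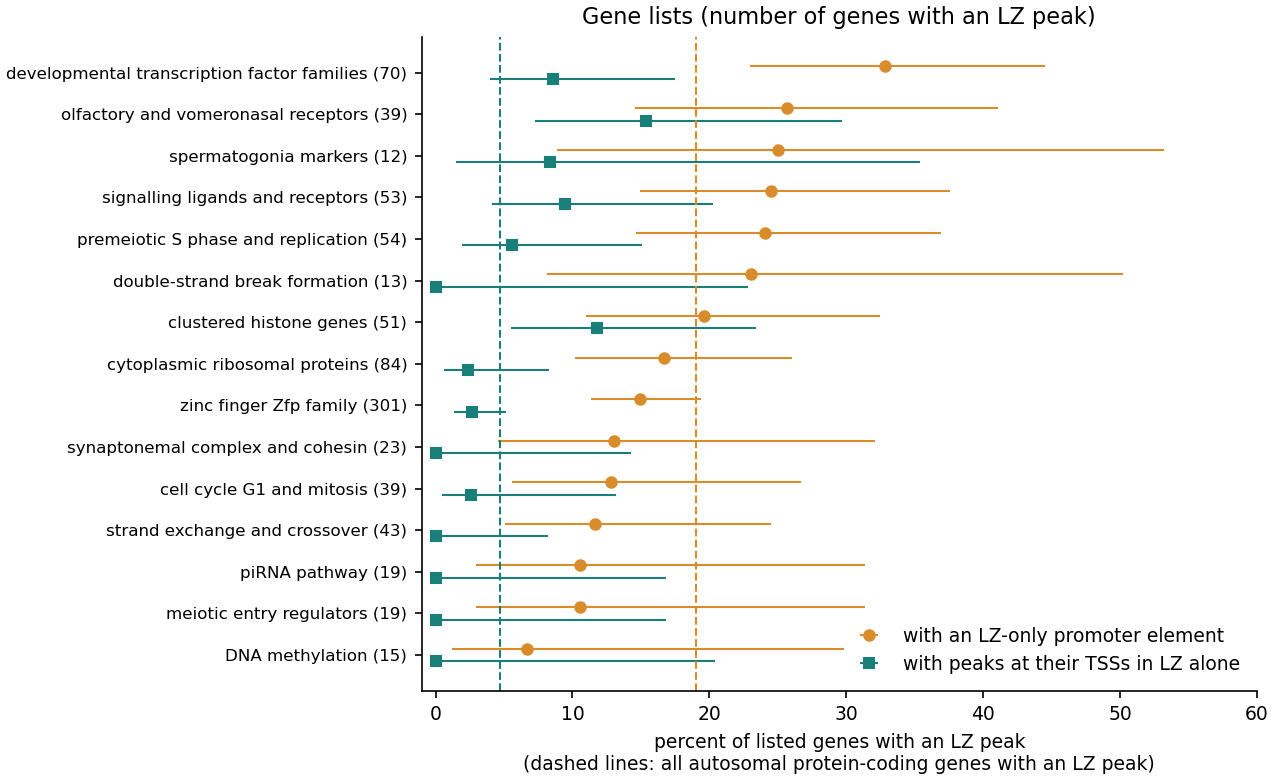
Percent of the genes with an LZ peak in each list of 15 or more genes that have an LZ-only promoter element (circles) or peaks at their TSSs in LZ alone (squares), with 95% Wilson intervals that cover counting alone. Dashed lines give the shares of all autosomal protein-coding genes with an LZ peak, 19.0% and 4.68%. Shares with a member run from 6.67% (DNA methylation) to 32.9% (developmental transcription factors), and the intervals contain the dashed lines except for developmental transcription factors (circle) and for histone genes and olfactory and vomeronasal receptors (squares). The members were chosen on the same calls, and genes that share an element are not separate observations. Nothing is therefore read from these exceptions.

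Zinc finger genes named Zfp had a member in 45 of 383 (14.95% of the 301 with an LZ peak, beside 19.0% of all genes with one), led by Zfp821 (0.770) and Zfp513 (0.723), and 8 were LZ alone (2.66% of the 301, beside 4.68%). Cytoplasmic ribosomal proteins had one in 14 of 90 (16.7% of the 84 with an LZ peak), and Rpl27 (0.596) and Rpl35 (0.386) were LZ alone (2.38% of the 84). Of 1413 olfactory and vomeronasal receptor genes 39 had an LZ peak, 10 had a member (25.6% of the 39) and 6 were LZ alone (15.4% of the 39, 7.25 to 29.7%, beside 4.68% of all genes with an LZ peak), the strongest being Olfr691 at 0.514. Since the members were chosen on the same calls, nothing is read from the shares of these lists. Of the 12 spermatogonia markers with an LZ peak 3 had a member. Cdh1, the adhesion protein E-cadherin, was LZ alone at 0.448, and Lin28a (0.450) and Pou5f1 (0.333) had P peaks and no D peak at their TSSs. The 1 spermatid marker with a member was the kinase gene Tssk6 (0.377), which had P and D peaks as well.

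Noncoding starts had strong members too. Without a protein-coding TSS within 1000 bp, the 5 highest-scoring members at lincRNA and antisense genes were at the lincRNA Gm49762 (1.075, chr13:74474231-74474970), the antisense gene 4930414N06Rik (1.005), the lincRNA 4930526H09Rik (0.991), and the antisense genes Gm16180 (0.983) and Gm26628 (0.973). That of Gm49762 was 61.0% soft-masked. That of 4930526H09Rik was the most isolated of the 5, with its nearest P peak 212191 bp and its nearest D peak 320881 bp away. It was also within 1000 bp of a start of the lincRNA Gm38397, and the peak does not tell which gene it belongs to. All but the one at Gm16180, 584 bp off, covered a TSS.

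Across the 19 autosomes the LZ-only share of promoter elements ran from 11.2% on chromosome 1 (9.72 to 13.0%) to 16.7% on chromosome 14 (14.7 to 19.1%), and every chromosome had at least 106 members.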

How the data were processed

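Before deposit the authors collapsed duplicate reads by their molecular identifier, cut adapters with cutadapt, and aligned the remainder with BWA to mm10 extended by a ribosomal RNA transcription unit. They called peaks with dREG on the merged libraries of each substage, under default settings; its version is not given in the sources used here. For each peak the authors deposited a dREG score, not scaled between substages, a p-value, none above 0.05 and not stated to be adjusted, and a centre position. In 39 members that centre lay outside the peak and the midpoint was used.

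Peaks were merged, placed against 132666 TSS positions of GENCODE M21 and read against GRCm38 with samtools 1.23.1 and Python 3.11.15 (scipy 1.17.1, pandas 2.3.3, numpy 2.4.6, matplotlib 3.10.9). These steps gave 0 wrong answers in 13548 comparisons with brute force on simulated data. Distances run from last base to first base. Weights used G and C bins of 5 points and score bins of 0.1, the score weights being chosen after seeing the data. Members, 22 gene lists, 19 motifs written by hand and all rules were chosen with earlier results of these data known. The named genes were the 20 LZ alone genes with the highest covering score, up to 6 genes of each list by score, the 5 highest-scoring members, 5 genes with most members, elements beside the distance threshold and 5 noncoding starts. Alternatives changed score, p-value, list length, merging, distance and TSS set. Read counts, RNA-seq, ATAC-seq and ChIP-seq were not analysed here.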

Additional observations from a re-analysis of the deposited data

Results flagged for a closer look

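The rule kept to autosomes, and the same calls on the sex chromosomes are given as values. Chromosome X had 140 LZ-only promoter elements among 954 promoter elements (14.7%, 95% Wilson interval 12.6 to 17.1%), with a median dREG score of 0.403. Chromosome Y had 24 among 46 (52.2%, 38.1 to 65.9%), with a median of 0.438. They are given because they lie outside the comparisons above. The lists have no control sample and no rate of false calls was measured on either chromosome.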

How the results depend on the processing

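No paired analysis was possible because the peaks of a substage were called on its pooled libraries, and for the same reason none of these was left out in turn. Of 69 values recomputed under 10 alternatives, 21 stayed within the error of the reported value (a factor of 1.5 for counts) and 48 moved. The lists give no depth, so how far it limits these values was not tested, nor were the causes of the changes.

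The 3710 members became 826 with a score of at least 0.5 asked of LZ alone, 1649 with lists of 38603 peaks each, 2083 and 1518 when peaks up to 100 or 500 bp apart were merged, 2285 with TSSs of protein-coding transcripts and 1898 without those near a later peak. Their share of promoter elements (14.6%) became 3.503%, 8.39%, 10.4%, 8.30%, 12.3% and 7.47% in that order, 13.7% with a score of at least 0.5 in all lists, 12.2% with an edge under 500 bp from a TSS and 14.0% with a centre under 1000 bp from one.

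The median score (0.389) became 0.616 and 0.598 with a score of at least 0.5 in all lists and in LZ alone, 0.444 with a p-value of at most 0.01, 0.665 with equal lists, 0.408 and 0.427 with merging, and 0.409 without near members. The share with a later peak within 500 bp (48.8%) became 32.9%, 31.2%, 45.5%, 28.4%, 22.1% and 0%, the last by construction, over the first 6 of these, 43.8% with an edge under 500 bp and 53.2% with protein-coding TSSs. The share covering a TSS (32.3%) became 48.97%, 49.8%, 36.2%, 53.6%, 44.9% and 54.2% over the same 6, 44.7% with an edge under 500 bp, 35.8% by centre, 30.6% with protein-coding TSSs and 47.1% without near members.

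The 591 LZ alone genes became 226 with a score of at least 0.5 asked of LZ alone and 492 to 729 under the other alternatives, 3 of which leave them as they are by construction. The median G and C content (51.0%) became 53.0% and 52.0% with the 2 score limits, 53.0% with equal lists, 52.0% when merged up to 500 bp, 52.0% with an edge under 500 bp, 53.0% with protein-coding TSSs and 52.5% without near members.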
